A study of Cricetulus griseus with 24 samples.

Results

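The enzymes that add methyl groups to histones and to arginine residues, and those that take them off histone lysines, were followed in Chinese hamster ovary (CHO) cells as the KMT, KDM, SETD, SMYD and PRMT genes. They were taken from the deposited count table by symbol, as every gene whose name begins with 1 of these stems and a digit, and were kept when their mean over all 20 cultures was 1 or more CPM (the usual count scaled to the total on genes). Of the 28037 genes in the table, 47 had such a symbol and 44 passed the level. KDM4D (0.143 CPM on average) and SETD9 (0.384 CPM) fell below it, and PRMT8 had 0 counts in all 20 cultures together, which allows up to 0.0108 CPM. The enzymes just above it were SMYD1, with a mean of 1.17 CPM, and KMT5C, with 4.98 CPM. The rule used the mean level over all cultures. SMYD1 met it through A0 alone, since its mean over the 12 cultures of the other lines was 0.811 CPM. That mean, like the levels of cultures and groups below, was scaled further by the TMM method. Its lower level there is therefore bound to the rule, and counts that hold it are also given without it. The other 43 passed whichever line was left out.

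A0 is an antibody-producing CHO DG44 line and A1 is its amplified progeny. Both carry a plasmid for the antibody heavy chain and one for the light chain, both were selected with G418, and A1 was then taken through rising steps of methotrexate. CHO-S is a non-producing CHO line and served as the negative control. The titles of its samples carry the tag NDST, which no source used here explains, so a change made to this line cannot be told from the labels. Each line was grown as suspension batch cultures and sampled at exponential and at stationary phase, with 4 cultures of A0, 3 of A1 and 3 of CHO-S at each phase. The 8 exponential libraries of A0 carry 4 culture numbers and were summed per culture. The second library is marked RLT for cultures 1 and 2 and Duplicate for cultures 3 and 4, and whether these pairs were handled apart is not given in the sources used here. Values of A1 against each pair alone are given for some of the enzymes where the pairs differed. A0 and A1 are 1 cell line each, so a difference between them is a difference between these lines, and what amplification did in other clones was not measured. The cultures of a group are separate by number only, and the p-values below measure the spread between them, which may be technical. A difference in bulk RNA does not tell whether more cells expressed a gene or each cell held more of its RNA.

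Lysine methylation of histones is written by SET domain enzymes and erased by flavin-dependent and Jumonji demethylases. Methylation of lysine 4 and lysine 36 of histone H3 accompanies active genes. Trimethylation of lysine 9 and lysine 27 of H3 and of lysine 20 of H4 accompanies silent chromatin. Arginine methyltransferases act on histones and on many RNA-binding and ribosomal proteins. In CHO production lines these systems are of interest because silencing of the transgene promoter is a known route to loss of productivity.

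Reads on genes ran from 6532373 to 26584337 per culture in 19 of the 20 cultures. Stationary culture 1 of CHO-S stood apart, with 1038026 reads on genes and a lowest correlation of 0.875 with the other cultures of its group, against 0.979 or more within each other group. In its library the counter put 32.8% of its records on no gene, against 11.9% to 18.4% in the other libraries. Each count and each named value that rests on stationary CHO-S is therefore also given without that culture where it moved most. The fibroblast-like markers VIM, LGALS1 and ANXA2 were at 329 CPM or more in every culture. PTPRC, CD3E, ALB and CDH5, which mark leukocytes, hepatocytes and endothelium, were at 0.808 CPM or less in all of them, and the epithelial EPCAM was at 1.57 to 2.03 CPM in A0, 1.6 to 3.54 CPM in A1 and 0 to 0.22 CPM in CHO-S. All tests below were made with edgeR on the whole table, and were called at a Benjamini-Hochberg adjusted p under 0.05, and fold changes are on the log2 scale. The share of all genes tested includes genes under 1 CPM. Shares are given for the fits on all cultures only, so counts from other fits have none beside them. Among genes with a mean of 1 or more CPM, the shares higher and lower together were larger in every comparison.

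The first comparison asked which of these enzymes differed between the high producer A1 and its parental line A0. At exponential phase 11 of the 44 passed the threshold (25.0%), beside 25.9% of all genes tested. At stationary phase 23 of the 44 passed (52.3%; 22 of 43 without SMYD1), against 33.7% of all genes tested. KDM3B, KDM4A and PRMT1 were higher in A1 at both phases, and KDM1B and PRMT5 were lower at both. At exponential phase 5 enzymes were higher and 6 were lower, beside 17.2% and 19% of all genes with a mean of 1 or more CPM. At stationary phase 10 were higher and 13 were lower (12 without SMYD1), beside 21.9% and 23.2% of such genes. Taking both directions, more than 25.0% of such genes were called at exponential and fewer than 52.3% at stationary phase. The median log2 fold change of the 44 was 0.00 at exponential and -0.05 at stationary phase, against -0.01 and 0.00 for genes with a mean of 1 or more CPM. The calls thus went in both directions. At stationary phase the proliferation genes MKI67 (0.97), PCNA (0.56) and CCNB1 (0.45) were also higher in A1, and TOP2A, CDK1 and MCM2 did not pass the threshold. At exponential phase TOP2A was lower (-0.47) and the 5 others did not pass. Their part in the results on the enzymes was not tested.

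**Figure D1:**
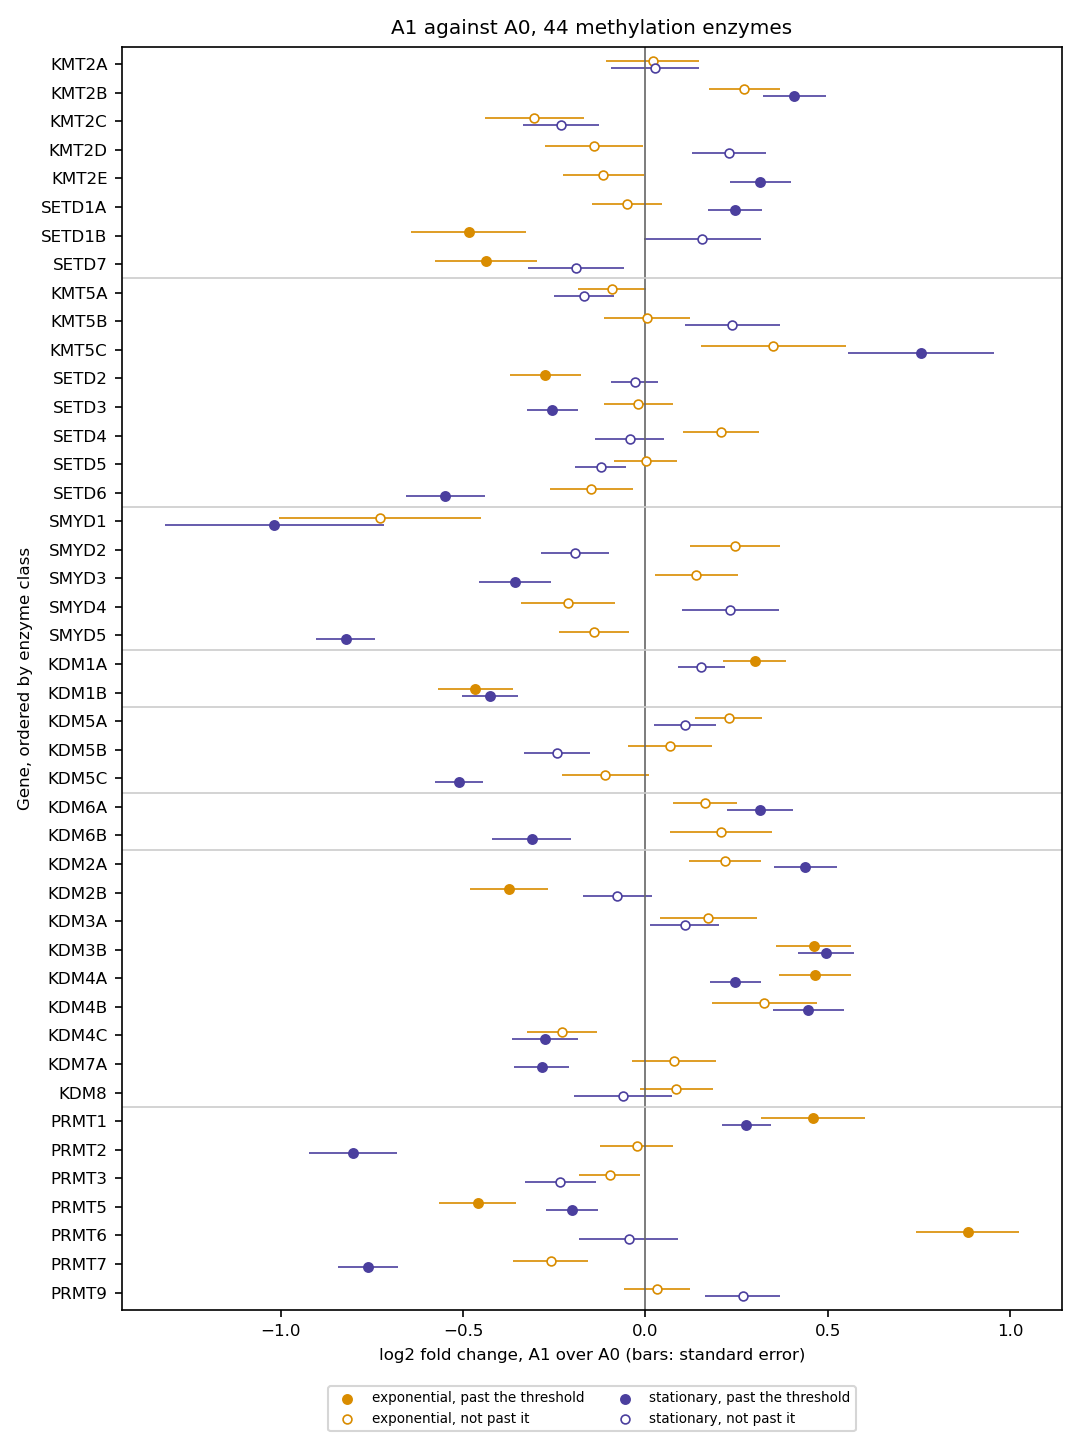
The log2 fold change of A1 over A0 is plotted on the horizontal axis for each of the 44 enzymes, which are ordered by class on the vertical axis, at exponential (orange) and stationary phase (purple). Bars are standard errors and filled points passed the threshold. KDM1B, KDM3B, KDM4A, PRMT1 and PRMT5 have 2 filled points on the same side of 0, and PRMT6 has its filled point at exponential phase and PRMT2, PRMT7 and SMYD5 at stationary phase.

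Among the arginine methyltransferases, PRMT1, PRMT5 and PRMT6 differed at exponential phase and PRMT1, PRMT2, PRMT5 and PRMT7 at stationary phase. PRMT1, the main enzyme of asymmetric arginine dimethylation, was at 313, 255, 187 and 199 CPM in exponential A0 cultures 1 to 4 and at 334, 339 and 313 CPM in A1. Every A1 culture was above every A0 culture, but A0 culture 1 came within 1 CPM of the lowest of A1. The log2 difference was 0.46 (SE 0.14, edgeR adjusted p = 0.027), and it was lost when culture 3 or 4 of A0 or any culture of A1 was left out (adjusted p of up to 0.12). A0 cultures 1 and 2 had other levels of PRMT1 than cultures 3 and 4, and against cultures 1 and 2 alone the difference was 0.20 (adjusted p = 0.086), against cultures 3 and 4 alone 0.76 (adjusted p = 0.00022). At stationary phase the A0 cultures were closer to each other, with 219, 203, 200.1 and 191 CPM, and A1 stood above all of them with 243, 251 and 251 CPM. That difference was 0.28 (SE 0.07, edgeR adjusted p = 0.0053), and it passed without any 1 culture. With all 6 groups in 1 fit PRMT1 passed at neither phase.

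PRMT5, which dimethylates arginine symmetrically and acts on histones and on splicing proteins, was at 441, 473, 559.5 and 411 CPM in exponential A0 and 341, 359 and 328 CPM in A1. All A1 cultures lay below all A0 cultures, with a log2 difference of -0.46 (SE 0.11, edgeR adjusted p = 0.0046). At stationary phase A0 had 276, 263, 289 and 308 CPM and A1 242, 263 and 242 CPM, and A1 culture 2 overlapped the lowest A0 culture. There the difference was -0.20 (SE 0.07, edgeR adjusted p = 0.043), and it was lost in 5 of the 7 fits that left out 1 culture, with an adjusted p of up to 0.15. CARM1, also known as PRMT4, has no PRMT symbol in the table and was looked up by name. It fell from 346, 356, 342 and 237 CPM in exponential A0 to 217, 224 and 207 CPM in A1, a difference of -0.57 (SE 0.12, edgeR adjusted p = 0.0034). At stationary phase CARM1 was lower in A1 by the same test, at -0.47 (SE 0.07, edgeR adjusted p = 0.00014).

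PRMT6, an asymmetric dimethylating enzyme of histone H3, had the largest rise at exponential phase among the 44. Its level was 5.27, 5.55, 5.45 and 6.71 CPM in A0 and 10.6, 10.8 and 10.4 CPM in A1, with no overlap, and the difference was 0.88 (SE 0.14, edgeR adjusted p = 0.00036). In stationary cultures A0 (10.5, 11.1, 10.5 and 10.9 CPM) and A1 (9.95, 9.2 and 12.2 CPM) overlapped, with a difference of -0.05 (adjusted p = 0.84). PRMT2 showed the other order. It was at 24.1, 22.6, 24.8 and 23.5 CPM in A0 and 22, 24.6 and 23.5 CPM in A1 at exponential phase, where the lines overlapped. At stationary phase A0 reached 74.3, 71.4, 54.6 and 52.8 CPM and A1 36.7, 35.5 and 37.4 CPM, so that every A1 culture was below every A0 culture, at -0.80 (SE 0.12, edgeR adjusted p = 0.00016). Within A0, stationary cultures 1 and 2 were above cultures 3 and 4, and the difference was -1.01 against the former and -0.56 against the latter, past the threshold in both.

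PRMT7, which leaves arginine with a single methyl group, was at 59.6, 54.6, 54.7 and 58.2 CPM in stationary A0 and 35.1, 32.2 and 34.1 CPM in A1, a log2 change of -0.76 (SE 0.08, edgeR adjusted p = 8.6e-06) with no overlap. At exponential phase the difference had the same sign and missed the threshold (-0.26 (adjusted p = 0.079)). PRMT3, which methylates a ribosomal protein, and PRMT9, which acts on a splicing factor, passed at neither phase against all of A0. Against stationary A0 cultures 1 and 2 alone both passed, PRMT3 at -0.39 (adjusted p = 4.8e-05) and PRMT9 at 0.36 (adjusted p = 0.0055), and against cultures 3 and 4 neither did (-0.06 and 0.18). A replicate block, which matched A0 and A1 cultures by number and left out A0 culture 4, also called PRMT3 (-0.26 (edgeR adjusted p = 0.026)). Over the 7 arginine enzymes the median log2 fold change was -0.02 at exponential and -0.20 at stationary phase.

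The pair of flavin-dependent demethylases moved apart. KDM1B, also called LSD2, was at 72.1, 73.9, 94.3 and 80.1 CPM in exponential A0 and 55.4, 61.2 and 57.4 CPM in A1. At stationary phase A0 had 87.6, 88.3, 99 and 94.7 CPM and A1 67, 72.3 and 68.6 CPM. A1 was below A0 without overlap at both phases, at -0.47 (SE 0.10, edgeR adjusted p = 0.0039) and -0.43 (SE 0.08, edgeR adjusted p = 0.00061), and both calls held without any 1 culture. KDM1A, also called LSD1, takes methyl groups from lysine 4 of histone H3 in complexes with histone deacetylases. It was at 133, 129, 137 and 152 CPM in exponential A0 and 166, 171 and 173 CPM in A1, again without overlap but in the other direction. Its difference was 0.30 (SE 0.09, edgeR adjusted p = 0.019), lost without A0 culture 2 and without each of the A1 cultures, with an adjusted p of up to 0.089. At stationary phase KDM1A had 146, 139.6, 142 and 143 CPM in A0 and 166, 155 and 159 CPM in A1, and the difference of 0.15 missed the threshold (adjusted p = 0.087).

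**Figure D2:**
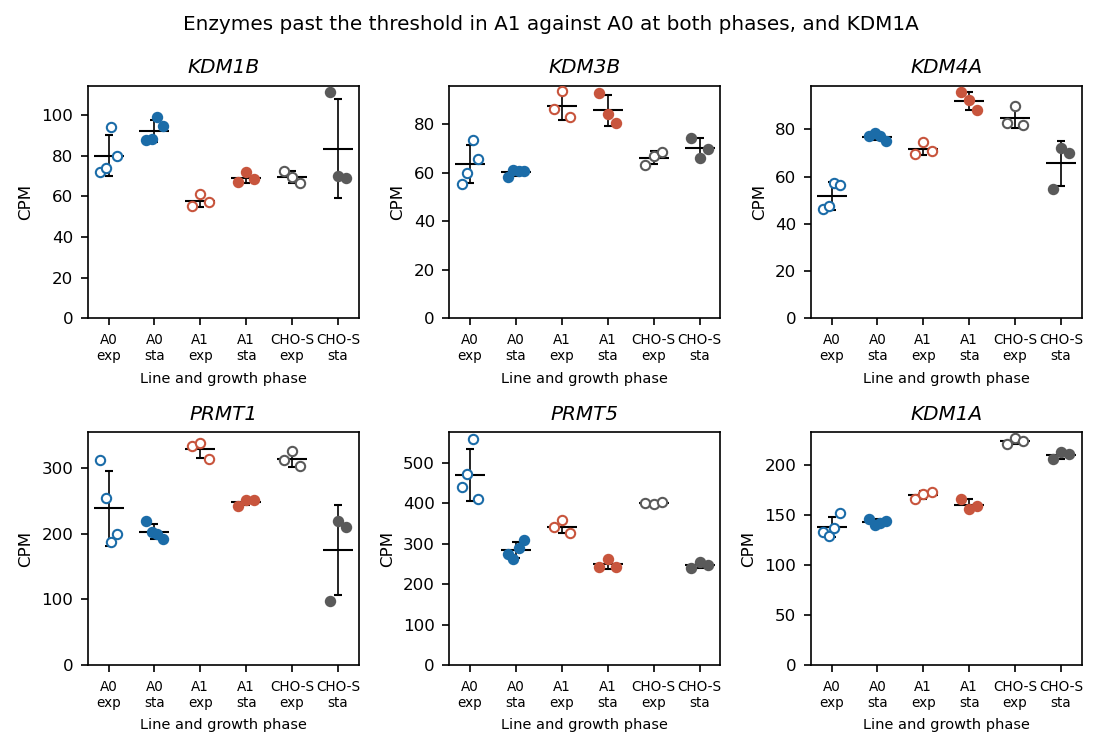
Each point is the CPM of 1 culture (vertical axis) in A0 (blue), A1 (red) and CHO-S (grey) at exponential (open) and stationary phase (filled), with the mean and SD of the group in black, for the 5 enzymes that passed in A1 against A0 at both phases and for KDM1A. In the KDM3B panel all 6 A1 cultures sit at 80.3 to 93.8 CPM, above all 8 A0 cultures, and in the KDM1B panel A1 sits below A0 at each phase.

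Of the 9 Jumonji demethylases of lysine 36 and lysine 9 of H3, 3 passed at exponential and 6 at stationary phase. Beside them, 25.9% and 33.7% of all genes tested passed. KDM3B, a lysine 9 demethylase, was at 55.2, 59.7, 73.5 and 65.6 CPM in exponential A0 and 86.1, 93.8 and 82.8 CPM in A1. At stationary phase it was at 58.3, 61.1, 60.7 and 60.7 CPM in A0 and 92.7, 84.1 and 80.3 CPM in A1. The lowest A1 culture was above the highest A0 culture at both phases, with differences of 0.46 (SE 0.10, edgeR adjusted p = 0.0039) and 0.50 (SE 0.08, edgeR adjusted p = 0.00018). KDM4A, which acts on trimethylated lysine 9 and lysine 36, rose as well. Exponential A0 had 46.2, 47.7, 57.5 and 56.3 CPM and A1 69.7, 74.8 and 70.7 CPM, a difference of 0.47 (SE 0.10, edgeR adjusted p = 0.0029). Stationary A0 had 77.3, 78.2, 77.1 and 75.2 CPM and A1 95.7, 92.3 and 88.1 CPM, a smaller difference of 0.25 (SE 0.07, edgeR adjusted p = 0.014), which did not pass when culture 1 of A1 was left out (adjusted p = 0.052).

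KDM2A, which removes methyl groups from lysine 36 at CpG islands, passed the threshold against all of A0 at stationary phase only, where it rose. It was at 98, 89.6, 113 and 111 CPM in A0 and 138, 149 and 135 CPM in A1, a difference of 0.44 (SE 0.09, edgeR adjusted p = 0.0011), and at exponential phase the difference was 0.22 (adjusted p = 0.12). Against A0 cultures 1 and 2 alone the exponential difference was 0.37 (edgeR adjusted p = 0.00078), and against cultures 3 and 4 alone it did not pass. KDM2A was also called at exponential phase with the replicate block and with the first A0 libraries. Its relative KDM2B, which is part of a variant Polycomb complex, was at 65.1, 68.2, 85.9 and 75.6 CPM in exponential A0 and 52.2, 57.9 and 60.5 CPM in A1. That change of -0.37 (SE 0.11, edgeR adjusted p = 0.017) missed the threshold when culture 1 or 2 of A1 was left out (adjusted p of up to 0.11). KDM4B was at 20.1, 18.7, 18.9 and 20.3 CPM in stationary A0 and 28.2, 27.9 and 24.5 CPM in A1, a rise of 0.45 (SE 0.10, edgeR adjusted p = 0.0027). KDM4C and KDM7A, in contrast, were lower in stationary A1, at -0.28 (SE 0.09, edgeR adjusted p = 0.03) and -0.28 (SE 0.07, edgeR adjusted p = 0.0089). KDM4C missed the threshold when culture 2 of A0 or culture 2 or 3 of A1 was left out (adjusted p of up to 0.17), and KDM7A when culture 3 of A1 was (0.059).

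None of the 3 KDM5 and 2 KDM6 demethylases passed against all of A0 at exponential phase, beside 25.9% of all genes tested. There edgeR gave 1 of the 5 an unadjusted p under 0.05 and DESeq2 called 0. KDM5C, an X-linked demethylase of lysine 4, was at 226, 238, 233 and 236 CPM in stationary A0 and 169, 168 and 158 CPM in A1, a log2 change of -0.51 (SE 0.07, edgeR adjusted p = 4.1e-05) without overlap. KDM5A was at 55.1, 50.4, 59.3 and 58.1 CPM in exponential A0 and 63.2, 70.2 and 62.7 CPM in A1. The A1 cultures were higher, but 0.23 (SE 0.09, edgeR adjusted p = 0.083) missed the threshold, and stationary cultures overlapped (0.11 (adjusted p = 0.36)). Against exponential A0 cultures 1 and 2 alone KDM5A passed, at 0.30 (edgeR adjusted p = 0.0092), and against cultures 3 and 4 alone it did not. KDM6A, a lysine 27 demethylase that travels with the KMT2C and KMT2D complexes, rose at stationary phase from 41.4, 43.5, 41.4 and 41.3 CPM in A0 to 59, 53.1 and 46.1 CPM in A1, by 0.31 (SE 0.09, edgeR adjusted p = 0.015). It no longer passed when culture 1 or 2 of A1 was left out (adjusted p of up to 0.083). KDM6B, an inducible demethylase of the same residue, was at 18.3, 17.9, 20.3 and 19.9 CPM in stationary A0 and 16.8, 15 and 15 CPM in A1. The change was -0.31 (SE 0.11, edgeR adjusted p = 0.039), and the call was lost in 4 of the 7 fits without 1 culture (adjusted p of up to 0.14).

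Of the 8 methyltransferases grouped by lysine 4, SETD1B and SETD7 were lower at exponential phase, and KMT2B, KMT2E and SETD1A were higher at stationary phase. Among genes with a mean of 1 or more CPM, 19% were lower at exponential and 21.9% higher at stationary phase. SETD7, which adds a single methyl group to lysine 4 and to many other proteins, was at 198, 206, 322 and 279 CPM in exponential A0 and 183, 189 and 185 CPM in A1. A0 cultures 3 and 4 were well above cultures 1 and 2, which themselves lay just above A1. The difference was -0.44 (SE 0.14, edgeR adjusted p = 0.031) over all of A0, -0.13 (adjusted p = 0.088) against cultures 1 and 2, and -0.70 (adjusted p = 0.00042) against cultures 3 and 4. SETD1B, a subunit of a complex that trimethylates lysine 4 at promoters, was at 11.3, 11.7, 15.3 and 10.8 CPM in A0 and 9.65, 9.3 and 7.4 CPM in A1, a log2 change of -0.49 (SE 0.16, edgeR adjusted p = 0.033). Both calls were lost in 5 of the 7 fits without 1 culture, with an adjusted p of up to 0.12 for SETD7 and 0.19 for SETD1B. Its paralog SETD1A was at 94.3, 105, 90.3 and 98.8 CPM in stationary A0 and 118, 117 and 113 CPM in A1, a rise of 0.25 (SE 0.07, edgeR adjusted p = 0.02), lost in 4 of the 7 fits without 1 culture (adjusted p of up to 0.067). KMT2B rose at stationary phase from 30.5, 29.5, 28.5 and 31.7 to 40.2, 42.7 and 37.6 CPM, by 0.41 (SE 0.09, edgeR adjusted p = 0.0021). At exponential phase KMT2B did not pass in the fit used throughout. Yet A1 (40.4, 35.2 and 40.6 CPM) lay above A0 (32.2, 32.6, 33.2 and 30.3 CPM) there without overlap. It was called at that phase with DESeq2, RLE normalization, a stricter count filter, the first A0 libraries, and A0 cultures 1 and 2 alone. KMT2E was at 107, 112, 131 and 129.9 CPM in stationary A0 and 150.3, 151 and 150.1 CPM in A1, a rise of 0.31 (SE 0.08, edgeR adjusted p = 0.0093). KMT2A, KMT2C and KMT2D, the largest family members with roles at enhancers and at developmental genes, passed at neither phase against all of A0. KMT2C was -0.55 (adjusted p = 0.0014) at exponential and -0.38 (adjusted p = 0.00032) at stationary phase against A0 cultures 3 and 4, and -0.02 and -0.06 against cultures 1 and 2. KMT2D at stationary phase passed against cultures 1 and 2 (0.39 (adjusted p = 0.0001)) and with the replicate block (0.31 (adjusted p = 0.0037)), and stood at 0.09 against cultures 3 and 4. KMT2A passed at exponential phase against cultures 1 and 2 (0.25 (adjusted p = 0.031)).

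In the group of 8 other SET enzymes, SETD2, the writer of trimethylated lysine 36, was at 256, 284, 333 and 311 CPM in exponential A0 and 244, 253 and 238 CPM in A1. Its difference of -0.27 (SE 0.10, edgeR adjusted p = 0.050) lay at the threshold and was kept in 1 of the 7 fits without 1 culture. KMT5C, which trimethylates lysine 20 of H4, was low in both lines, with 2.33, 2.19, 2.65 and 2.32 CPM in stationary A0 and 3.56, 4.48 and 4.0 CPM in A1. The A1 cultures were higher without overlap, by 0.76 (SE 0.20, edgeR adjusted p = 0.0091), and culture 2 of A1 was needed for the call (adjusted p = 0.059 when left out). SETD6, which methylates a subunit of NFκB, was at 45.4, 40.8, 35.2 and 37.4 CPM in stationary A0 and 30.2, 24.9 and 27.3 CPM in A1, a log2 change of -0.55 (SE 0.11, edgeR adjusted p = 0.0012) that held without any 1 culture. SETD3, an actin histidine methyltransferase, changed by -0.26 (SE 0.07, edgeR adjusted p = 0.012) and did not pass when culture 2 of A1 was left out (adjusted p = 0.083).

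The SMYD enzymes, whose SET domain is split by a MYND zinc finger, were lower in A1 in 3 of 5 cases at stationary phase (2 of 4 without SMYD1). Beside them, 23.2% of genes with a mean of 1 or more CPM were lower. At exponential phase none passed in the fit used throughout, beside 25.9% of all genes tested. There edgeR gave 1 of the 5 an unadjusted p under 0.05 and DESeq2 called 0. SMYD5 was at 67.6, 67.9, 61.8 and 61.5 CPM in stationary A0 and 37.4, 35.8 and 37.5 CPM in A1. The lines did not overlap, and the change of -0.82 (SE 0.08, edgeR adjusted p = 4.1e-06) had the smallest p among the 44 in that comparison. SMYD3, which also methylates a kinase of the MAP kinase pathway, was at 26.9, 25.6, 27.8 and 23.6 CPM in A0 and 20.1, 21.2 and 20 CPM in A1, a log2 change of -0.36 (SE 0.10, edgeR adjusted p = 0.012), which culture 3 of A1 was needed to call (adjusted p = 0.051 when left out). SMYD1, known from muscle, whose place among the enzymes rests on its level in A0, was near the lower limit in every culture, with 1.77, 1.35, 1.79 and 1.72 CPM in stationary A0 and 0.853, 0.786 and 0.832 CPM in A1. Its difference of -1.02 is given as a description. SMYD2 and SMYD4 passed at neither phase in the fit used throughout. At exponential phase SMYD2 was called with the replicate block, with A0 cultures 1 and 2 alone and without A0 culture 4. SMYD1 was called there with a stricter count filter, all 6 groups in 1 fit, the first A0 libraries, and without A0 culture 1.

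The calls of A1 against A0 depended on single cultures more at exponential than at stationary phase. At exponential phase 5 of the 11 calls remained without A1 culture 1 and the same number without A1 culture 2, and 6 without A1 culture 3. KDM1B, KDM3B, KDM4A, PRMT5 and PRMT6 passed in every one of these fits. At stationary phase between 15 and 23 of the 23 calls remained, the fewest without A1 culture 2 (15) and A1 culture 3 (16). The pairs of A0 cultures gave other counts. At exponential phase 19 enzymes passed against A0 cultures 1 and 2 alone, where PRMT1, SETD2 and SETD7 were lost, and 13 against cultures 3 and 4, where KDM1A was. Among the 11 gained against cultures 1 and 2 were KDM3A at 0.44 (edgeR adjusted p = 0.00081) and KDM4B at 0.61 (edgeR adjusted p = 0.00044). KDM5C, KMT2C and SETD4 were gained against cultures 3 and 4. At stationary phase 24 passed against cultures 1 and 2, with KDM6B, PRMT5 and SMYD1 lost, and 28 against cultures 3 and 4, with KDM4C lost. With all 6 groups in 1 fit, KDM4A, KDM4B, KDM4C, KDM6B, KDM7A, KMT2B, KMT2E, PRMT1, PRMT5, SETD1A and SETD3 were lost at stationary phase. The replicate block, which left out A0 culture 4, lost KDM4A, KDM6B and PRMT5 there and gained KMT2D and PRMT3.

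Whether the difference between A1 and A0 itself changed with growth phase was tested as an interaction of line and phase over the 14 cultures of both. It passed for 5 of the 44 enzymes (11.4%), against 8.94% of all genes tested. All 5 were negative, that is, the difference of A1 from A0 was lower at stationary than at exponential phase. Among genes with a mean of 1 or more CPM, 7.98% had a positive and 6.24% a negative interaction, together above the 11.4% of the enzymes. The 5 were the arginine methyltransferases PRMT6, PRMT2 and PRMT7 and the SMYD enzymes SMYD5 and SMYD3.

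**Figure D3:**
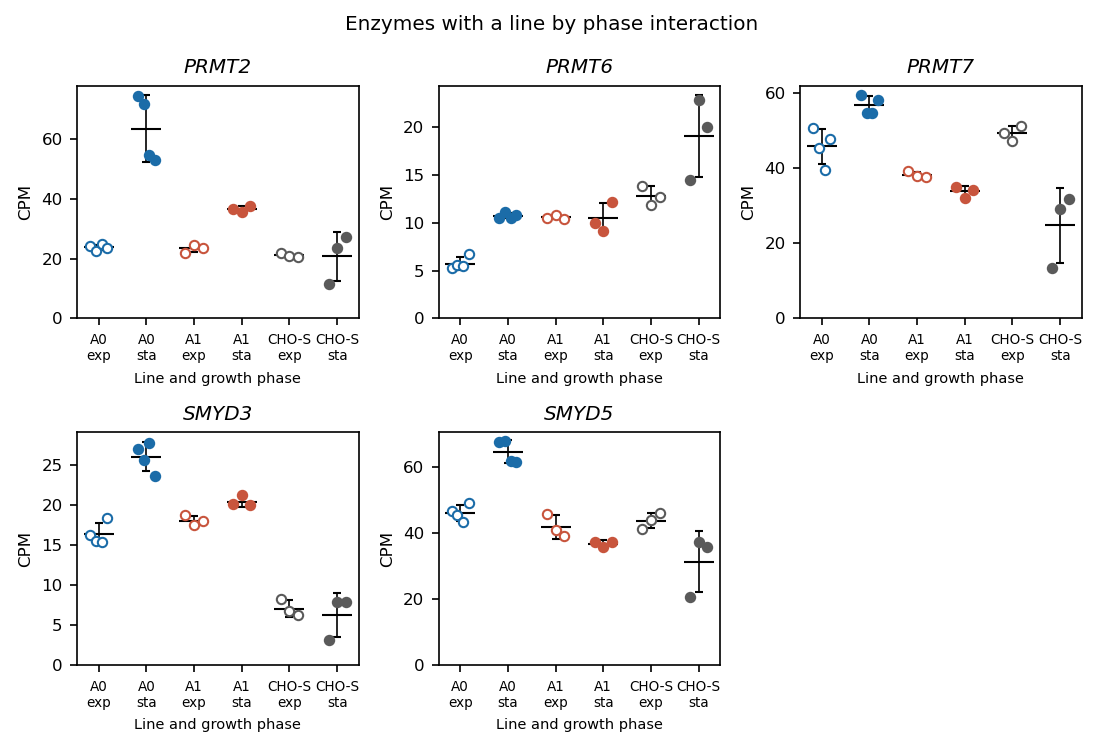
Each point is the CPM of 1 culture (vertical axis) in A0 (blue), A1 (red) and CHO-S (grey) at exponential (open) and stationary phase (filled), with the group mean and SD in black, for the 5 enzymes with an interaction of line and phase. From exponential to stationary phase A0 goes up in all 5 panels, and A1 passed the test of phase in the PRMT2 panel only.

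For PRMT6 the interaction was -0.93 (SE 0.19, edgeR adjusted p = 0.0034). Its level in A0 went from 5.75 ± 0.651 CPM (SD, n = 4) to 10.8 ± 0.281 CPM (SD, n = 4), a rise of 0.89 (adjusted p = 7.7e-05), while A1 went from 10.6 ± 0.204 CPM (SD, n = 3) to 10.5 ± 1.58 CPM (SD, n = 3), a change of 0.00 (adjusted p = 0.99). Exponential A0 was thus the only low group of the 4, and stationary A0 and both A1 groups overlapped.

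PRMT2 rose with phase in both lines, and more in A0. A0 went from 23.7 ± 0.91 CPM (SD, n = 4) to 63.3 ± 11.1 CPM (SD, n = 4) and A1 from 23.4 ± 1.29 CPM (SD, n = 3) to 36.5 ± 0.967 CPM (SD, n = 3). These were rises of 1.40 (adjusted p = 2.3e-07) and 0.66 (adjusted p = 3.6e-07), and the interaction was -0.78 (SE 0.16, edgeR adjusted p = 0.0033). Stationary A0 was above every other culture of both lines.

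SMYD5 and PRMT7 rose with phase in A0, by 0.47 (adjusted p = 0.00054) and 0.30 (adjusted p = 0.025). The call of PRMT7 was lost without exponential culture 2 or 3 or stationary culture 1 or 4, and with either pair of A0 cultures alone. In A1 the changes of SMYD5 and PRMT7 were -0.17 (adjusted p = 0.12) and -0.17 (adjusted p = 0.12), neither past the threshold. Their interactions were -0.68 (SE 0.13, edgeR adjusted p = 0.0015) and -0.50 (SE 0.13, edgeR adjusted p = 0.02), and that of PRMT7 was lost without A1 exponential culture 1, A1 exponential culture 2 or A1 stationary culture 2 (adjusted p of up to 0.077). SMYD3 rose in A0 (0.66 (adjusted p = 0.00015)) and changed by 0.20 (adjusted p = 0.13) in A1. Its interaction of -0.50 (SE 0.15, edgeR adjusted p = 0.036) was lost in 11 of the 14 fits without 1 culture, with an adjusted p of up to 0.093. The proliferation genes MKI67 (1.02 (adjusted p = 0.014)) and PCNA (0.92 (adjusted p = 0.0023)) had positive interactions, and their part was not tested.

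Without A0 exponential culture 4 the count of interactions was 10, and without A1 exponential culture 1, A1 exponential culture 2 or A1 stationary culture 2 it was 3, with PRMT6, PRMT2 and SMYD5 among them each time. With all 6 groups in 1 fit it was 3, and PRMT7 (-0.49 (adjusted p = 0.12)) and SMYD3 (-0.49 (adjusted p = 0.11)) did not pass. With the culture number as a replicate block, which left out A0 culture 4, it was 14, the 5 included. The count also moved with the A0 cultures used. It was 18 against A0 cultures 1 and 2 alone, with 13 negative and 5 positive, and 7 against cultures 3 and 4 alone, with 5 negative and 2 positive. PRMT6, PRMT2, PRMT7 and SMYD5 passed in both, at -1.02 and -0.83, -1.01 and -0.51, -0.45 and -0.56, and -0.75 and -0.60. SMYD3 passed against cultures 1 and 2 only, at -0.56 (adjusted p = 0.0041) and -0.43 (adjusted p = 0.11).

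CHO-S, which makes no antibody, was compared with each producing line to place their levels against another CHO line. The comparisons share the CHO-S cultures, so their values are given side by side. At exponential phase 27 of the 44 enzymes (61.4%) differed between CHO-S and A0, against 49.5% of all genes tested, with 17 higher in CHO-S and 10 lower (30.4% and 34.5% of genes with a mean of 1 or more CPM). Against A1 35 of the 44 (79.5%) differed, against 57.2% of all genes tested, with 25 higher and 10 lower (35.9% and 37.1%). Taking both directions, more than 61.4% of genes at that level differed from A0 and fewer than 79.5% from A1. The median log2 fold change of the 44 was 0.09 over A0 and 0.20 over A1, against -0.05 and -0.02 for genes with a mean of 1 or more CPM. The origin, the transfection and the selection of the lines differ together, so their parts cannot be told apart.

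**Figure D4:**
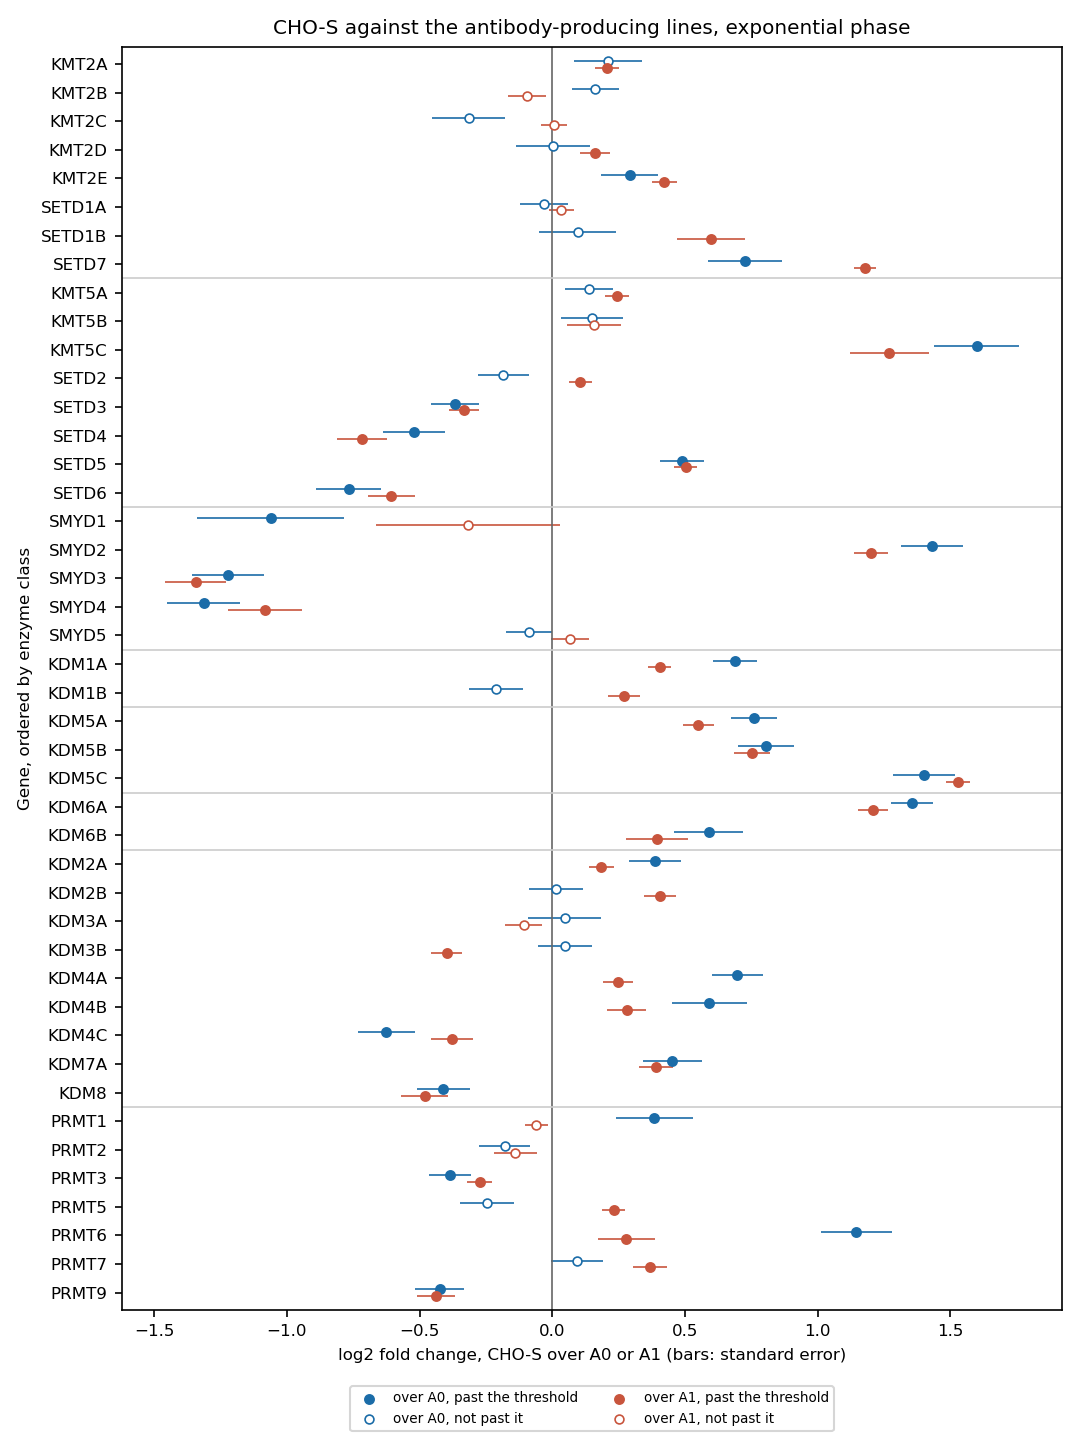
The log2 fold change of exponential CHO-S over A0 (blue) and over A1 (red) is plotted on the horizontal axis for the 44 enzymes, ordered by class on the vertical axis, with standard errors as bars and filled points past the threshold. KDM5C, KDM6A, KMT5C and SMYD2 lie above 1 over both lines, and SMYD3 and SMYD4 lie below -1 over both.

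At exponential phase all 3 KDM5 demethylases of lysine 4 and both KDM6 demethylases of lysine 27 were higher in CHO-S over A0 and over A1, beside 30.4% and 35.9% of genes with a mean of 1 or more CPM. KDM6B, at 0.39 over A1, did not pass with all 6 groups in 1 fit (adjusted p = 0.057), and at stationary phase it passed over neither line (0.02 (adjusted p = 0.96) and 0.34 (adjusted p = 0.23)). KDM5C was at 354, 362 and 369 CPM in exponential CHO-S, against 109 to 157 CPM in A0 and 123 to 128 CPM in A1. This was a log2 difference of 1.40 (SE 0.12, edgeR adjusted p = 1.9e-07) over A0 and 1.53 (SE 0.04, edgeR adjusted p = 1.4e-18) over A1. KDM6A was at 106, 103 and 98.7 CPM, against 39.2 to 40.6 CPM in A0 and 44.1 to 45.4 CPM in A1, or 1.36 (SE 0.08, edgeR adjusted p = 4.4e-09) and 1.21 (SE 0.06, edgeR adjusted p = 7.9e-15). KDM5B was 0.81 and 0.75 higher than in A0 and A1. None of the CHO-S cultures overlapped the producing lines for these 3 enzymes.

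Among the methyltransferases, KMT5C was higher in CHO-S, at 10.7, 9.27 and 11.5 CPM, or 1.60 (SE 0.16, edgeR adjusted p = 1.2e-06) over A0 and 1.27 (SE 0.15, edgeR adjusted p = 1.1e-07) over A1. SMYD2, which methylates p53 among other proteins, was at 67, 71.8 and 72.8 CPM, against 22.1 to 32.4 CPM in A0 and 30.3 to 31 CPM in A1. Its differences were 1.43 (SE 0.12, edgeR adjusted p = 1.4e-07) and 1.20 (SE 0.06, edgeR adjusted p = 7.6e-14). SETD7 was at 413, 421 and 421 CPM, 0.73 over A0 and 1.18 over A1. PRMT6 was 1.15 over A0 and 0.28 (adjusted p = 0.031) over A1, where it did not pass when culture 3 of A1 or culture 1 or 3 of CHO-S was left out (adjusted p of up to 0.14).

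Of the enzymes lower in CHO-S, SMYD3 and SMYD4 were lower by more than 1 against both lines. SMYD3 was at 8.22, 6.68 and 6.23 CPM in CHO-S, against 15.3 to 18.3 CPM in A0 and 17.4 to 18.7 CPM in A1, or -1.22 (SE 0.13, edgeR adjusted p = 3.1e-06) and -1.34 (SE 0.12, edgeR adjusted p = 5.7e-10). SMYD4 was at 4.72, 4.09 and 4.71 CPM, against 10.3 to 11.8 CPM in A0 and 8.92 to 10.6 CPM in A1, or -1.31 (SE 0.14, edgeR adjusted p = 1.7e-06) and -1.08 (SE 0.14, edgeR adjusted p = 4.5e-07). SMYD1 stood at -1.06 against A0, a description as above, and did not pass against A1. Without it 26 of 43 enzymes differed from A0 at exponential phase, 9 of them lower. KDM4C was at -0.63 (adjusted p = 0.00021) against A0 and -0.38 (adjusted p = 0.00025) against A1. SETD6 and SETD4 were also lower, at -0.77 and -0.52 against A0 and -0.61 and -0.72 against A1.

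At stationary phase 25 of the 44 (56.8%) differed between CHO-S and A0, against 40% of all genes tested, with 14 higher and 11 lower (24.7% and 24.5% of genes with a mean of 1 or more CPM). Between CHO-S and A1 19 (43.2%) differed, against 34.8%, with 11 higher and 8 lower (20.6% and 21.7%). Without stationary CHO-S culture 1, the counts were 27 against A0 (14 higher, 13 lower) and 35 against A1 (17 higher, 18 lower). All 25 and all 19 were among these. The shares of all genes called without that culture are not given here, so the 27 and 35 cannot be set against them. SMYD3 stood at 3.1, 7.84 and 7.86 CPM in CHO-S cultures 1 to 3, or -1.81 (SE 0.20, edgeR adjusted p = 6e-05) against A0 and -1.44 (SE 0.18, edgeR adjusted p = 0.0006) against A1, and at -1.74 and -1.35 without culture 1. KMT5C stood at 3.1, 9.45 and 8.13 CPM, 1.78 (SE 0.26, edgeR adjusted p = 0.00036) over A0 and 1.05 (SE 0.24, edgeR adjusted p = 0.01) over A1, and culture 1 was the low value. KDM6A was 1.18 (adjusted p = 8e-05) over A0 (1.09 without culture 1) and KDM5C 1.20 (adjusted p = 0.0033) over A1 (1.42 without it).

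PRMT2 at 11.4, 23.7 and 27.1 CPM and PRMT7 at 13.4, 29.2 and 31.8 CPM were below stationary A0, at -1.47 (SE 0.24, edgeR adjusted p = 0.00087) and -1.06 (SE 0.21, edgeR adjusted p = 0.0028), and the values without culture 1 were -1.34 and -0.91. SETD6 was -1.42 (adjusted p = 8.7e-05) and KDM8, a Jumonji protein also called JMJD5, was -1.03 (adjusted p = 0.0023) against A0. SETD4 (-0.98 (adjusted p = 0.0031)) and SMYD4 (-1.13 (adjusted p = 0.0033)) were lower than in A1. SMYD2 was higher than in A1 by 1.02 (adjusted p = 0.0068). KMT2E, SETD7 and KDM7A rested in size on culture 1. KMT2E was at 474, 185 and 181 CPM, and its difference of 1.22 (adjusted p = 0.0099) over A0 became 0.59 (adjusted p = 0.00031) without that culture. SETD7 went from 1.02 over A0 to 0.62 without it, and KDM7A from 1.09 over A1 to 0.62. Over A1 the KDM7A call was lost without each of the A1 cultures, the SMYD2 call without A1 culture 1, and the KMT5C call without culture 3 of A1 or culture 2 or 3 of CHO-S (adjusted p of up to 0.095, 0.051 and 0.11). The count of 19 went to 11 without A1 culture 2 and to 11 without A1 culture 3.

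The last comparison asked how the enzymes differed between exponential and stationary phase within each line. In A0 20 of the 44 (45.5%) differed, against 37.7% of all genes tested, with 13 higher at stationary phase and 7 lower (22.9% and 29.5% of genes with a mean of 1 or more CPM). In A1 19 (43.2%) differed, against 33.4%, with 12 higher and 7 lower (20.7% and 25.3%). In CHO-S 8 (18.2%) differed, against 13.3%, with 2 higher and 6 lower (8.4% and 8.8%). Taking both directions, genes at that level were called more often than the enzymes in A0 and A1, and less often in CHO-S. Without stationary CHO-S culture 1 the CHO-S count was 32, with 12 higher and 20 lower, and the 8 were among them. The share of all genes called without that culture is not given here, so the 32 cannot be set against it. Without exponential culture 1 or 3 the CHO-S count was 1 (SETD1B). Without exponential culture 2, stationary culture 2 or stationary culture 3 it was 0, with 9, 12 and 13 of the 44 at an unadjusted p under 0.05 by edgeR, and DESeq2 called 12 on all CHO-S cultures. The median of the 44 was 0.02 in A0, 0.08 in A1 and -0.05 in CHO-S, against -0.06, -0.01 and -0.01 for genes with a mean of 1 or more CPM.

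**Figure D5:**
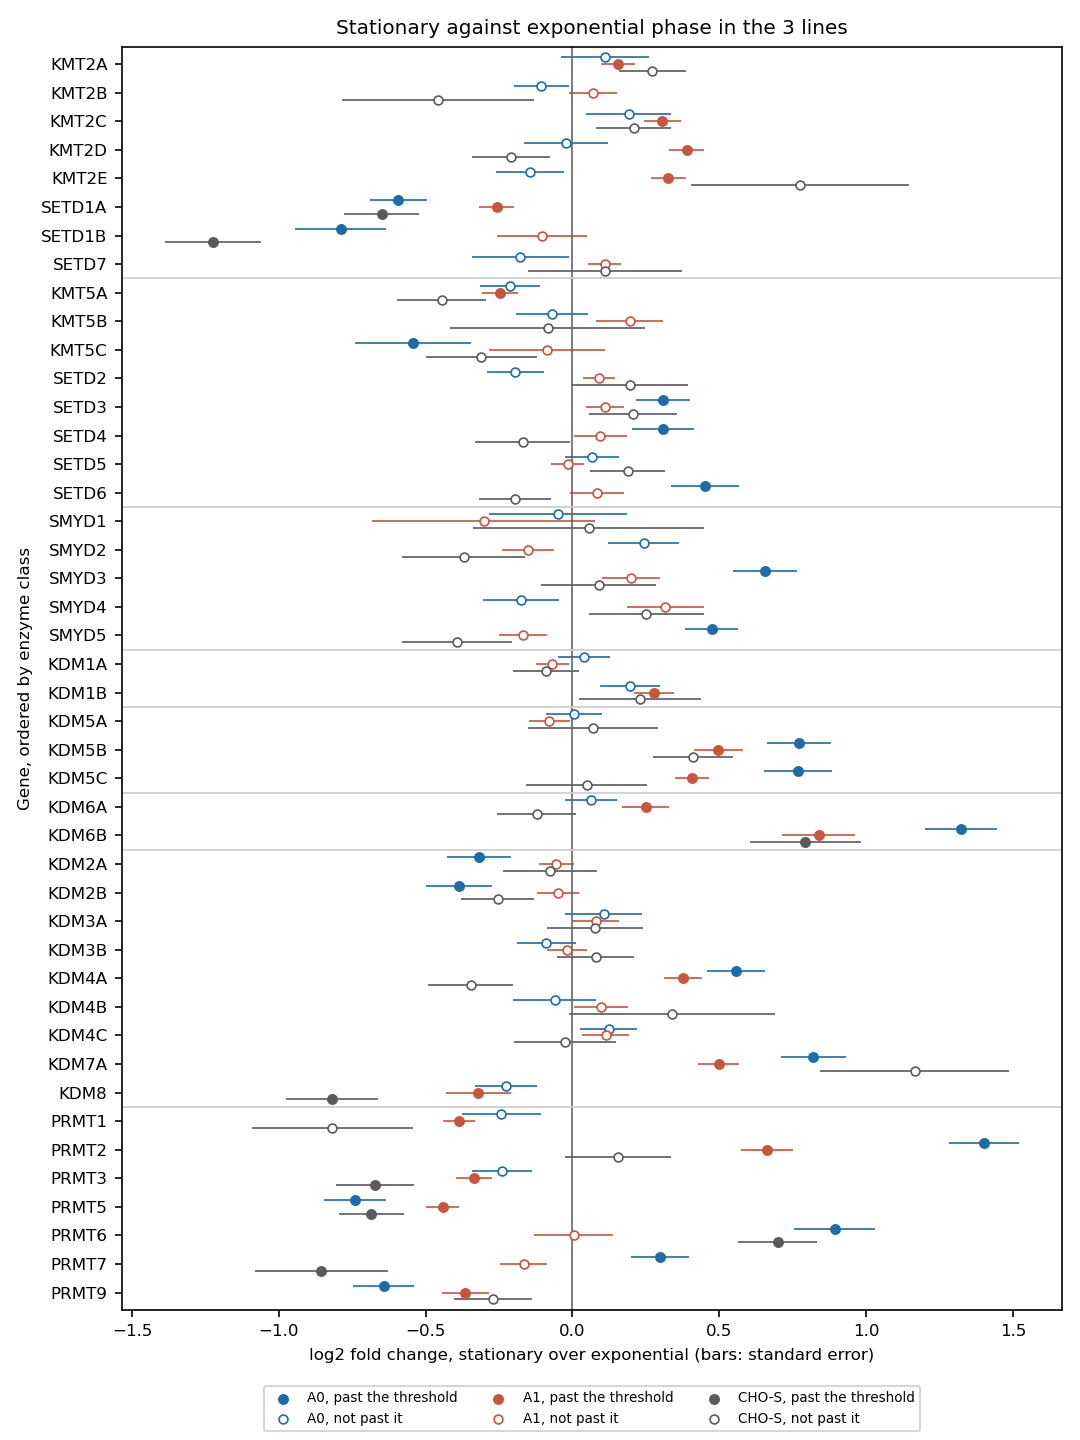
The log2 fold change of stationary over exponential phase is plotted on the horizontal axis for the 44 enzymes, ordered by class on the vertical axis, in A0 (blue), A1 (red) and CHO-S (grey), with standard errors as bars and filled points past the threshold. KDM6B is filled to the right of 0 in all 3 lines, and PRMT5 and SETD1A are filled to the left.

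KDM6B, PRMT5 and SETD1A passed in all 3 lines with the same sign, but in CHO-S each was lost in 5 of the 6 fits without 1 culture (adjusted p of up to 0.23, 0.089 and 0.11) and with the replicate block. KDM6B was at 7.35, 7.19, 7.09 and 8.7 CPM in exponential A0 and 18.3, 17.9, 20.3 and 19.9 CPM in stationary A0, a rise of 1.32 (SE 0.12, edgeR adjusted p = 5.1e-07). In A1 it went from 8.35, 8.88 and 9.07 to 16.8, 15 and 15 CPM, by 0.84 (SE 0.12, edgeR adjusted p = 2.3e-06). In CHO-S it was at 11.2, 12.7 and 10.6 CPM and then 11.4, 24.1 and 16.9 CPM, where stationary culture 1 overlapped the exponential cultures, with a difference of 0.79 (SE 0.19, edgeR adjusted p = 0.033) and 0.89 (adjusted p = 7.3e-11) without that culture.

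PRMT5 fell in each line. The differences were -0.74 (SE 0.11, edgeR adjusted p = 4.1e-05) in A0, -0.44 (SE 0.06, edgeR adjusted p = 2e-07) in A1 and -0.69 (SE 0.11, edgeR adjusted p = 0.0097) in CHO-S, where it went from 401, 398 and 403 to 241, 256 and 248 CPM. The phases did not overlap in any of the lines. SETD1A fell too, with -0.59 (adjusted p = 0.00014) in A0, -0.26 (adjusted p = 0.001) in A1 and -0.65 (adjusted p = 0.018) in CHO-S. SETD1B fell in A0 (-0.79 (adjusted p = 0.00064)) and in CHO-S (-1.22 (adjusted p = 0.0054)), from 12.4, 12 and 15.3 to 7.22, 5.5 and 5.69 CPM in the latter. Its CHO-S call was lost in 3 of the 6 fits without 1 culture (adjusted p of up to 0.067) and with the replicate block. In A1 its difference was -0.10 (adjusted p = 0.68).

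Several enzymes rose with phase in the producing lines. KDM7A, a demethylase of lysine 9 and lysine 27, rose by 0.82 (SE 0.11, edgeR adjusted p = 1.9e-05) in A0 and 0.50 (SE 0.07, edgeR adjusted p = 9.7e-07) in A1. KDM5B rose by 0.77 (adjusted p = 3.3e-05) and 0.50 (adjusted p = 1.7e-05), and KDM5C by 0.77 (adjusted p = 6e-05) and 0.41 (adjusted p = 1.5e-06). No phase overlapped the other for these in either line. In CHO-S their differences were 1.17 (adjusted p = 0.055), 0.41 (adjusted p = 0.091) and 0.05 (adjusted p = 0.91) over all cultures, and 0.69, 0.34 and 0.26 without stationary culture 1, past the threshold in each. KMT2D rose by 0.39 (adjusted p = 4.4e-06) in A1 and was at -0.02 (adjusted p = 0.93) in A0. PRMT1 was lower, at -0.39 (adjusted p = 1.3e-06), in A1 and was at -0.24 (adjusted p = 0.18) in A0, and these differences between lines did not pass in the interaction (adjusted p = 0.23 for KMT2D and 0.6 for PRMT1). That of KMT2D passed with the replicate block, at 0.44 (adjusted p = 0.0044), or 0.36 (adjusted p = 0.021) with each culture as the block, and that of PRMT1 against A0 cultures 3 and 4 alone, at -0.42 (adjusted p = 0.01).

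Among the 8 calls of CHO-S were also PRMT7 (-0.85 (adjusted p = 0.047)), KDM8 (-0.82 (adjusted p = 0.016)), PRMT3 (-0.67 (adjusted p = 0.019)) and PRMT6 (0.70 (adjusted p = 0.017)). Without stationary culture 1 these were -0.70, -0.75, -0.71 and 0.76, each past the threshold. In the other 5 fits without 1 culture, and with the replicate block, none of the 4 passed (adjusted p of up to 0.19, 0.14, 0.11 and 0.16 without 1 culture). PRMT6 was at 13.9, 11.9 and 12.7 CPM in exponential and 14.5, 22.9 and 20.1 CPM in stationary CHO-S. It rose in CHO-S and in A0, and its difference in A1 was 0.00 (adjusted p = 0.99). PRMT7 was at 49.4, 47.2 and 51.1 and 13.4, 29.2 and 31.8 CPM, a fall in CHO-S beside a rise of 0.30 (adjusted p = 0.025) in A0. That call in A0 also depended on single cultures.

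Proliferation genes moved with phase as well. In A0 and in A1 5 of the 6 listed (MKI67, TOP2A, CCNB1, PCNA and MCM2) were lower at stationary phase, with PCNA at -2.05 and -1.09, and in CHO-S CCNB1, PCNA and MCM2 were, with PCNA at -1.03. CDK1 passed in none of the lines. In stationary CHO-S culture 1 MKI67 was at 761 CPM and TOP2A at 1072 CPM, against 769 to 832 and 1110.0 to 1143 CPM in exponential CHO-S and 408 and 666 CPM in stationary culture 2. The part of growth rate in the phase differences of the enzymes was not tested.

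The other genes of the same systems were read from lists chosen for their roles. Their counts of A1 against A0 stand beside 17.2% of genes higher and 19% lower at exponential phase, and 21.9% and 23.2% at stationary phase, where MKI67, PCNA and CCNB1 were also higher in A1. Of 15 other lysine methyltransferases, 1 was higher and 2 were lower in A1 than in A0 at exponential phase, and 5 were higher and 1 was lower at stationary phase, with medians of -0.13 and 0.14. EZH2, the lysine 27 methyltransferase of Polycomb complex PRC2, was at 0.23 (adjusted p = 0.11) and 0.47 (adjusted p = 0.0015). WHSC1L1, a lysine 36 methyltransferase also called NSD3, was lower in A1 at both phases, at -0.68 (adjusted p = 0.00048) and -0.51 (adjusted p = 0.00012). Of 9 PRC2 subunits, 2 were higher and 1 was lower at exponential phase, and 5 and 1 at stationary phase. Of 11 subunits of the lysine 4 methyltransferase complexes, 1 was higher and 4 were lower at exponential phase, and 2 and 2 at stationary phase. Their shared core subunit WDR5 was lower at both, at -0.38 (adjusted p = 0.0086) and -0.28 (adjusted p = 0.029).

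Among 4 partners of PRMT5, WDR77, its obligate cofactor, rose while PRMT5 fell. WDR77 was at 37.8, 34.4, 28.9 and 32.2 CPM in exponential A0 and 52.8, 56.5 and 52.5 CPM in A1, without overlap, a difference of 0.69 (SE 0.10, edgeR adjusted p = 0.00021). At stationary phase it was 0.16 (adjusted p = 0.24). COPRS, which recruits PRMT5 to histones, was lower at both phases, at -0.58 (adjusted p = 0.0013) and -0.82 (adjusted p = 3.1e-05), and CLNS1A, which brings splicing proteins to it, was at -0.23 (adjusted p = 0.18) and -0.40 (adjusted p = 0.00072). Of 6 other Jumonji proteins 3 were lower at exponential and 2 at stationary phase. In the supply of the methyl donor, AHCY, which clears the product S-adenosylhomocysteine, was higher in A1 at 0.40 (adjusted p = 0.025) and 0.66 (adjusted p = 2.3e-05), and MAT2A, which makes S-adenosylmethionine, was at -0.31 (adjusted p = 0.019) and -0.04 (adjusted p = 0.81).

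From exponential to stationary phase, 8 of the 11 lysine 4 complex subunits were lower in A0, 6 in A1 and 3 in CHO-S, and 7 of the 9 PRC2 subunits were lower in A0, 4 in A1 and 3 in CHO-S, beside 29.5%, 25.3% and 8.8% of genes with a mean of 1 or more CPM. MKI67, TOP2A, CCNB1, PCNA and MCM2 were lower with them in A0 and A1, and their part was not tested. EZH2 was lower in each line, at -0.76 (adjusted p = 6.1e-05), -0.47 (adjusted p = 3.8e-07) and -0.90 (adjusted p = 0.009), and its CHO-S call was lost in 5 of the 6 fits without 1 culture (adjusted p of up to 0.075). AHCY was also lower in each, at -0.74 (adjusted p = 0.00018), -0.45 (adjusted p = 9.1e-08) and -1.33 (adjusted p = 0.0042), and its CHO-S call was lost without exponential culture 2 (adjusted p = 0.055). In exponential CHO-S the PRC2 subunit SUZ12 was 1.42 (adjusted p = 1.3e-08) over A0 and 1.69 (adjusted p = 2.5e-16) over A1, and SETDB1, a lysine 9 methyltransferase, was 1.29 (adjusted p = 8e-09) and 1.13 (adjusted p = 1.1e-14).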

How the data were processed

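RNA of 20 cultures was measured in 24 libraries made with a stranded mRNA kit. The authors aligned the reads to the C_griseus_v1.0 genome with STAR 2.5.4b, counted them per gene with HTSeq 0.7.2, and deposited raw counts, per the labels and the study's methods. Reads with several alignments are not counted by HTSeq, so near-identical copies lose reads. Its strand setting is not given in the sources used here, so overlapping and antisense genes are uncertain. The 5 summary lines of the counter were kept out.

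A0 exponential libraries of 1 culture number were summed. The quasi-likelihood test of edgeR 4.0.16 (R 4.3.3) was run on the counts of each comparison after TMM normalization. It covered genes counted at least 1 time in 2 or more cultures, with some variance. P-values are two-sided and were adjusted by Benjamini and Hochberg over every gene tested. The CPM of single cultures and of groups were TMM-normalized over all 20 cultures, and log2 fold changes come from the fit. Plain CPM, which are counts over the sum of counts on genes, set membership and the genes with a mean of 1 or more CPM. TMM-normalized CPM or the mean of the 6 group means gave the same 44 members. The fits were tried on simulated counts with 1 common dispersion, independent cultures and no culture standing apart. That trial thus does not cover stationary CHO-S or the pairs of A0 cultures, and nothing is concluded from it. Every member past the threshold in A1 against A0 was named, and KDM1A and KDM5A whatever their result, and in the other comparisons up to 8 by size of change. Others named there were added for comparison. The members, classes and lists were chosen with earlier results of these data known.

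Alternatives were DESeq2 1.42.0, RLE normalization, a stricter count filter, all 6 groups in 1 fit, a replicate block, first A0 libraries alone, each pair of A0 cultures, and leaving out each culture. The replicate block matched cultures by number and kept only numbers found in every group compared. Against A1 or CHO-S it thus left out A0 culture 4. Nothing in the sources used here ties equal numbers of different lines together. In A0, same-numbered deviations from the group means correlated between phases at 0.416, 0.307, 0.259 and 0.190 for cultures 1 to 4. The highest correlations with another number were 0.234, 0.179, 0.27 and 0.314. Stationary cultures 3 and 4 thus matched another exponential culture more closely than their own number. In the other comparisons the correlations did not all pass 0.1. Symbols are those of the deposited table, and 46 of the 47 identifiers were found among the RefSeq genes of CriGri-PICRH-1.0, which is another build, so no coordinates are given. Intervals of depth cover counting error only. Figures were drawn with matplotlib 3.10.9 in Python 3.11.15 with pandas 2.3.3.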

Additional observations from a re-analysis of the deposited data

Results flagged for a closer look

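In 4 of the 88 sets of 4 A0 cultures (44 enzymes at 2 phases), 1 culture lay far from the other 3. Its gap to the nearest of them was 0.945 of the whole range for KDM6A in stationary culture 2 (43.5 CPM), 0.839 for KDM6B in exponential culture 4 (8.7 CPM), 0.842 for KDM3B in stationary culture 1 (58.3 CPM) and 0.846 for SMYD1 in stationary culture 2 (1.35 CPM), above Dixon's critical value. Chance alone flags about 1 in 20 sets, or 4.4 of 88. In all 4 cases the whole range of the A0 cultures was under 3 CPM, with 58.3, 61.1, 60.7 and 60.7 CPM for KDM3B, 41.4, 43.5, 41.4 and 41.3 CPM for KDM6A, 7.35, 7.19, 7.09 and 8.7 CPM for KDM6B and 1.77, 1.35, 1.79 and 1.72 CPM for SMYD1.

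The difference of A1 from A0 changed with growth phase for SMYD3 (interaction -0.50 on the log2 scale), SMYD5 (-0.68), PRMT2 (-0.78), PRMT6 (-0.93) and PRMT7 (-0.50), each past the threshold of edgeR over all genes. PRMT6 differed between the lines at exponential phase and the other 4 at stationary phase.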

How the results depend on the processing

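Over all named enzymes and alternatives, 1697 values were recomputed, of which 1508 kept their side of the threshold, 159 lost it, 30 gained it and 0 reversed past it. Of 44 enzymes, counts called moved by over 1.5 times as follows, and the cause was not tested. A1 against A0 at exponential phase went from 11 to 19 with A0 cultures 1 and 2 alone. With all 6 groups in 1 fit, A1 against A0 at stationary phase went from 23 to 12, CHO-S against A1 at exponential phase from 35 to 21, the phases of A1 from 19 to 7, those of CHO-S from 8 to 14 and the interaction from 5 to 3. CHO-S against A0 at stationary phase went from 25 to 16 with A0 cultures 1 and 2 alone and to 13 with cultures 3 and 4 alone. The interaction went from 5 to 8 with the first A0 libraries and to 18 with A0 cultures 1 and 2 alone. With the replicate block, CHO-S against A0 at stationary phase gave 14, the phases of CHO-S 0 (12 at an unadjusted p under 0.05 by edgeR, and 12 called by DESeq2 without the block) and the interaction 14, or 13 with each culture as a replicate block, which was chosen after seeing the data. In the phases of A0 the replicate block gave 22 in place of 20, with PRMT3 and SMYD2 added and no other call changed. Leaving out each culture gave 5 to 13 for A1 against A0 at exponential and 15 to 25 at stationary phase, 25 to 28 and 20 to 27 for CHO-S against A0, 32 to 35 and 11 to 35 for CHO-S against A1, 17 to 20, 16 to 19 and 0 to 32 for the phases of A0, A1 and CHO-S, and 3 to 10 for the interaction.

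KMT5C and SMYD1 had few counts. Stationary CHO-S culture 1, with 1038026 reads on genes and 32.8% of records on no gene, limits the stationary CHO-S values most. RNA levels say nothing of enzyme protein or of methylation, which were not analysed here.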
